A study of Homo sapiens with 70 samples.

Results

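Induction of the ZBTB11 guide named sgZBTB11 #1 for 5 days is described here through 5 RNA-seq libraries, 3 from cells given doxycycline (DOX) and 2 from cells given DMSO, the vehicle, out of 70 libraries in the series. The members were taken by their titles alone, as every library of that guide at day 5. All cells were MIA PaCa-2, a human pancreatic ductal adenocarcinoma (PDAC) line, in a form resistant to sotorasib, a targeted cancer drug. In every group, DMSO groups included, the cells held dCas9-KRAB, a Cas9 that no longer cuts DNA joined to the KRAB repressor. DOX turns its expression on, and the guide then brings it to the start of the targeted gene. The groups used below are sgZBTB11 #1 with DOX (3 libraries) and with DMSO (2), the second guide sgZBTB11 #2 with DOX (3) and with DMSO (3), and the guide sgNS with DOX (3) and with DMSO (3), all at day 5. The sgNS label names no gene, and these cells served as the control for DOX itself. The sgZBTB11 #1 cells at day 3 with DOX (3) and with DMSO (3) gave an earlier time. Those at 5 hr and at day 1, each with DOX (3) and with DMSO (3), gave values for a few named genes. Whether the libraries of a group are separate cultures is not stated in the labels, and the p-values below therefore measure a spread that may be technical only. The labels also do not say whether the cells of a guide are a clone or a pool. Doxycycline is an antibiotic known to inhibit mitochondrial translation by itself, and the sgNS cells received it too.

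ZBTB11 encodes a transcription factor with a BTB domain and zinc fingers. In human cells it is known to bind promoters of nuclear genes for mitochondrial proteins together with GABP, an ETS-family factor, and its loss lowers components of the respiratory chain and the mitochondrial ribosome. Mitochondria of PDAC cells supply ATP, aspartate and other precursors.

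The 5 libraries held between 13941273 and 16571787 counts, within the range of 12068833 to 20627648 over all 70. RNA of mitochondrial DNA took 32.9%, 33.1% and 32.8% of the counts in the DOX libraries and 33.5% and 33.7% in the DMSO libraries. Of the markers of pancreatic cancer epithelium, 6 of 12 lay under 1 TPM (the length-corrected transcript share), with CEACAM6 and TFF1 at 0 and CDH1, EPCAM, KRT7 and LCN2 near 0. VIM, an intermediate filament of mesenchymal cells, averaged 3610 TPM in DOX and 3390 TPM in DMSO libraries, and KRT18, a simple-epithelium keratin, 1040 and 1010 TPM. Acinar and endocrine markers summed to 0.34 to 0.66 TPM in DOX and 0.42 to 0.46 TPM in DMSO libraries, with 9 of 11 at 0. Fibroblast markers summed to 174 to 175 TPM in DOX and 159 to 165 TPM in DMSO libraries, nearly all of it COL1A2, with 8 of 11 under 1 TPM and 3 at 0. Blood and endothelial markers summed to 11.2 to 11.8 and 12.2 to 12.8 TPM, mostly CDH5, with 11 of 13 under 1 TPM and 5 at 0. The part of these small shifts, and of the mitochondrial share, in the results was not tested. In bulk RNA, fewer cells of a type and less RNA per cell cannot be told apart. Of the other libraries used here, DMSO replicate 2 of sgNS stood apart from its 2 partners.

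ZBTB11 mRNA (ENSG00000066422.7, chromosome 3, 101648889 to 101677132, GRCh38.p14, minus strand) fell with the guide. It had 35.8, 33.2 and 32.4 CPM (counts scaled to library size) in DOX libraries, against 43.5 and 46.8 CPM in DMSO libraries. Every DOX library lay below both DMSO libraries. The means were 33.8 ± 1.8 CPM (SD, n = 3) with DOX and 45.1 ± 2.3 CPM (SD, n = 2) with DMSO, a log2 change of -0.42 (SE 0.064) with an adjusted p of 6.5e-05 in edgeR's quasi-likelihood test over 16809 genes, or -25%. Leaving out any 1 of the 5 libraries gave log2 changes between -0.47 and -0.36 with adjusted p of at most 0.023. On the log2(TPM + 1) scale with limma the change was -0.29 with an adjusted p of 0.23, which misses the threshold of 0.05 used throughout. In sgZBTB11 #2 cells the gene had 26.5, 25.8 and 26.7 CPM with DOX and 50.6, 48.3 and 48.4 CPM with DMSO, a log2 change of -0.90 (adjusted p = 4.9e-17). In sgNS cells it had 48.7, 43.9 and 49.8 CPM with DOX and 53.8, 48 and 56.2 CPM with DMSO, a log2 change of -0.15 (adjusted p = 0.032) although no guide targets it there.

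The sgZBTB11 #1 change in ZBTB11 was therefore 0.48 log2 units less negative than that of sgZBTB11 #2 (adjusted p = 0.00026, called in all 11 runs that left out 1 library of either guide). It was 0.26 log2 units more negative than that of sgNS, a difference of -0.26 with an adjusted p of 0.026. That difference from sgNS lost its call in 6 of 11 such runs: without sgZBTB11 #1 DMSO replicate 2 (adjusted p = 0.16), DOX replicate 2 (0.056) or DOX replicate 3 (0.083), and without sgNS DMSO replicate 2 (0.083), DOX replicate 1 (0.066) or DOX replicate 3 (0.086). Over time, sgZBTB11 #1 gave ZBTB11 a log2 change of 0 at 5 hr (adjusted p = 0.96), and its log2 change was -0.28 after 1 day (0.00077) and -0.45 by day 3 (2.8e-06), against -0.42 by day 5. The day 5 change minus the day 3 change was 0.04 (adjusted p = 1), so no further fall was detected after day 3.

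**Figure D1:**
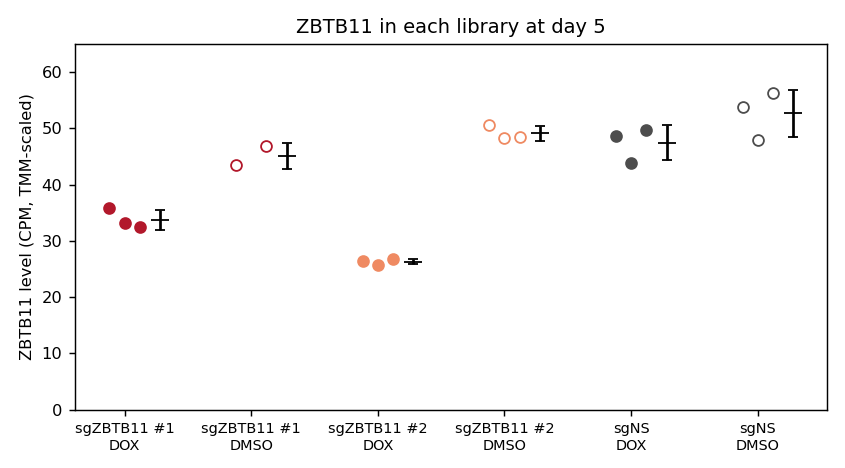
ZBTB11 level in CPM in each day 5 library of sgZBTB11 #1, sgZBTB11 #2 and sgNS, DOX left of DMSO, with 1 point per library and a line at each group mean. The sgZBTB11 #1 DOX libraries lie between 32.4 and 35.8 CPM and its DMSO libraries at 43.5 and 46.8 CPM, and the DOX libraries of sgZBTB11 #2 lie lower, between 25.8 and 26.7 CPM.

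The genes beside ZBTB11 on chromosome 3 were examined next. Of 10 tested, ZBTB11 included, 1 rose, 1 (ZBTB11 itself) fell, against 1.14% of all 16809 tested genes called either way, and the median log2 change was 0.03. SENP7, a SUMO protease, had 23.2, 20.5 and 19.5 CPM in DOX and 15.4 and 16.1 CPM in DMSO libraries, with no overlap, and rose by 0.42 (adjusted p = 0.047). That call was lost in each of the 5 runs without 1 library, with adjusted p of 0.5 and 0.18 without DMSO replicate 1 or 2 and 0.21, 0.088 and 0.05 without DOX replicate 1, 2 or 3. RPL24, a protein of the large ribosomal subunit, had a log2 change of -0.07 (adjusted p = 0.29), and TRMT10C, a subunit of mitochondrial RNase P, -0.05 (0.88). ZBTB11-AS1 had -0.01 (adjusted p = 1), but it lies antisense to ZBTB11 and the sources used here do not say whether reads were counted by strand. The 300 bases at the ZBTB11 start, from 250 before to 50 after it, hold 1 ETS core run (CCGGAAG, searched on both strands), the kind of site GABP binds, and 1 cyclic AMP response element (TGACGTCA). They are printed beside those of the 3 mitochondrial ribosomal protein genes that fell with this guide, each of which also holds 1 ETS run. The promoter of AGK, another mitochondrial gene that fell, holds 0 and is not printed. The ETS run is in capitals, read as CTTCCGG where it lies on the other strand. All are RefSeq promoters on GRCh38.p14, written 5′ to 3′ along the gene: ZBTB11 at chr3:101677083-101677382 (minus), MRPL48 at chr11:73787624-73787923 (plus), MRPL40 at chr22:19432295-19432594 (plus) and MRPL3 at chr3:131502922-131503221 (minus).
ZBTB11: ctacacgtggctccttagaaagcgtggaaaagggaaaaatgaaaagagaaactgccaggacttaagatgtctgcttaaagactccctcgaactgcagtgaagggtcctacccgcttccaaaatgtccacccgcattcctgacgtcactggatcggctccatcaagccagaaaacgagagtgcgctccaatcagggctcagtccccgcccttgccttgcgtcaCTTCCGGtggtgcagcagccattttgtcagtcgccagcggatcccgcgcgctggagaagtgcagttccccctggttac
MRPL48: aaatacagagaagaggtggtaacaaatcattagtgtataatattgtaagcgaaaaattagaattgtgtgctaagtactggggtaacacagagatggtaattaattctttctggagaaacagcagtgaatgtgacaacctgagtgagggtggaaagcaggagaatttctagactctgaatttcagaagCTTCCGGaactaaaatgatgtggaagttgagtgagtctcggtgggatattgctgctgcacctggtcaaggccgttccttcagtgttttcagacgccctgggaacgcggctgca
MRPL40: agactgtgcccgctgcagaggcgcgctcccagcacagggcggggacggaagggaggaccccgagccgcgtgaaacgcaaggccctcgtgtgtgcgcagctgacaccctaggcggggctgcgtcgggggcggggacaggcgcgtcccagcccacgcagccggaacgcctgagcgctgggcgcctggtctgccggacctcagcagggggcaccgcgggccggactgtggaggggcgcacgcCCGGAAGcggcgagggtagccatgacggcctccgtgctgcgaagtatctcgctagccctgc
MRPL3: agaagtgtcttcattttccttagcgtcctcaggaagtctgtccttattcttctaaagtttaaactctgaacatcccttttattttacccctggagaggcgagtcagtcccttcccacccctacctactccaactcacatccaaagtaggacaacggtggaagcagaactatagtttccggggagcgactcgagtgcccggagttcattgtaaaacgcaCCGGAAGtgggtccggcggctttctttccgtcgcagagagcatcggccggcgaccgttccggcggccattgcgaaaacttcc

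Such runs are common. Among genes that fell with sgZBTB11 #1 at day 5 (0.773% of those tested), 104 of 130 had a promoter in the table and 26 of these (25%) held the run, and among those that rose (0.363% of those tested), 10 of 45 (22.2%) did, against 19.2% of the 11099 promoters of tested genes and 10.7% of all 27305 RefSeq promoters of this length. The cyclic AMP response element was in 5 (4.81%) of those that fell and in 3 (6.67%) of those that rose, against 3.29% of tested genes' promoters and 1.98% of all. The palindrome bound by NRF1 was in 0 of those that fell and in 1 (2.22%) of those that rose, against 2.36% of tested genes' promoters and 1.36% of all. The CArG box of serum response factor was in 1 that fell (0.962%) and in 0 that rose, against 1.06% of tested genes' promoters and 1.29% of all. A match is a description of the letters and not evidence of binding.

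DOX against DMSO in sgZBTB11 #1 cells at day 5 called 191 of 16809 genes (1.14%), of which 61 rose (0.363%) and 130 fell (0.773%), and 1989 genes had an unadjusted p under 0.05. The called changes were small. Their sizes ran from 0.09 to 1.21 log2 units with a median of 0.19, 133 of the 191 were under 0.25 and 9 were over 0.5. Of the called genes 180 were protein-coding, 8 were long noncoding RNAs and 3 were of other types. In each of the 191 the DOX and DMSO libraries did not overlap, as they did not in 28.6% of all tested genes (4801 of 16809). The calls rested heavily on the 2 DMSO libraries, and with 1 of them left out the other is assumed to vary like the remaining groups. Without DMSO replicate 1 there were 27 calls (10 higher, 17 lower), of which 24 were among the 191, and without DMSO replicate 2 there were 65 (26 higher, 39 lower), of which 52 were. Without DOX replicate 1, 2 or 3 there were 74, 140 and 85 calls, of which 70, 123 and 82 were among the 191. Called in all 5 such runs were 14 genes, 4 of them higher and 10 lower, and called in none of them were 34.

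**Figure D2:**
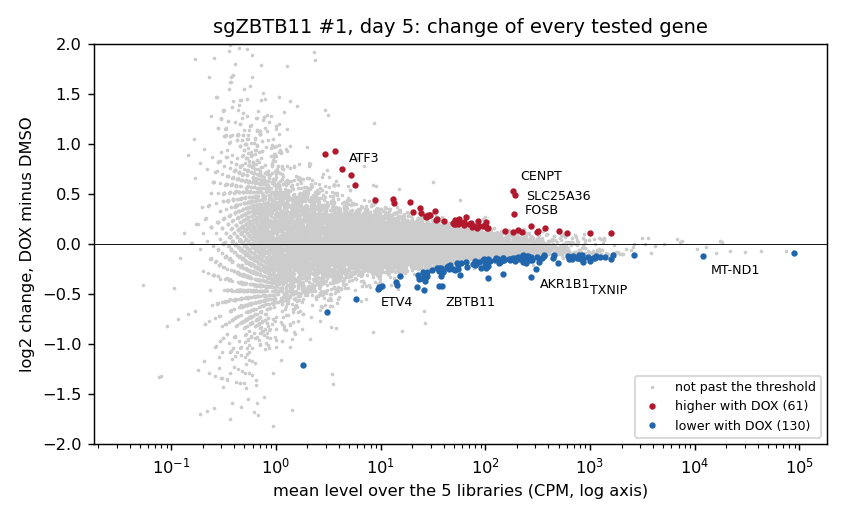
Log2 change (DOX minus DMSO, sgZBTB11 #1, day 5) of every tested gene against its mean level in CPM on a log axis, with genes past the threshold coloured and a few named. The called genes lie close to 0, 133 of 191 within 0.25 log2 units, and 63 of the tested genes fall outside the plotted range of changes.

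The 4 increases that held without any 1 library were in CENPT, SLC25A36, FOSB and SLC39A10. CENPT, a kinetochore protein that joins centromeric chromatin to spindle microtubules, had 205, 207 and 214 CPM in DOX libraries against 145 and 143 CPM in DMSO libraries. It was the clearest increase, with no overlap and a log2 change of 0.53 (SE 0.036, adjusted p = 1.6e-15), or 44.7%. CENPT overlaps THAP11 on chromosome 16, so reads of the pair may not be fully told apart. SLC25A36 on chromosome 3, a carrier of pyrimidine nucleotides across the inner mitochondrial membrane, had 219, 214 and 218 CPM against 152 and 158 CPM, again without overlap, a log2 change of 0.49 (SE 0.035, adjusted p = 5.4e-15). FOSB on chromosome 19, an AP-1 subunit, had 202, 203 and 198 CPM with DOX against 163 and 164 CPM with DMSO, a log2 change of 0.30 (SE 0.034, adjusted p = 2.3e-08). SLC39A10 on chromosome 2, a zinc importer, was at 284, 285 and 289 CPM against 252 and 252 CPM, a log2 change of 0.18 (SE 0.031, adjusted p = 0.00029).

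CENPT and SLC25A36 also rose with DOX where ZBTB11 was not targeted. In sgNS cells their log2 changes were 0.38 and 0.19, and with sgZBTB11 #2 0.48 and 0.32. With sgZBTB11 #1 the CENPT change was 1.28 at 5 hr, 1.76 at day 1 and 0.77 at day 3, and that of SLC25A36 0.52, 0.71 and 0.56. The day 5 minus day 3 difference was -0.24 for CENPT (adjusted p = 0.76) and -0.07 for SLC25A36 (0.97), neither of them called. FOSB and SLC39A10 had the opposite sign in sgNS cells, with log2 changes of -0.56 and -0.15, and the same sign with sgZBTB11 #2, 0.30 and 0.09.

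The 10 decreases that held were ZBTB11, ETV4, MAN2C1, AKR1B1, BMS1, CCDC57, TXNIP, DUS1L, WARS1 and RPS9. ETV4 on chromosome 17, an ETS transcription factor induced by MAPK signalling, had 23.9, 20.8 and 23.4 CPM in DOX libraries against 30.8 and 31.7 CPM in DMSO libraries. It was the largest decrease among the 10, with no overlap and a log2 change of -0.46 (SE 0.069, adjusted p = 5.3e-05). MAN2C1 on chromosome 15, a cytosolic alpha-mannosidase that trims free glycans, had 98.3, 97.6 and 90.6 CPM against 122 and 120 CPM, a log2 change of -0.34 (SE 0.041, adjusted p = 1e-07). AKR1B1 on chromosome 7, aldose reductase, had 250, 252 and 248 CPM against 316 and 311 CPM, a log2 change of -0.33 (SE 0.032, adjusted p = 4.8e-10). BMS1 on chromosome 10, a GTPase of small ribosomal subunit assembly, had 54.4, 50.1 and 53.7 CPM against 65.3 and 65.4 CPM and fell by 0.31 log2 units (adjusted p = 0.00014). CCDC57, a centrosomal protein gene, had 133, 133 and 139 CPM against 168 and 164 CPM and fell by 0.30 (adjusted p = 7.8e-08). In each of these genes the groups did not overlap, as in all 191 called genes and in 28.6% of all tested genes.

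TXNIP on chromosome 1, a thioredoxin-binding inhibitor of glucose uptake that the sensor MondoA switches on, had 282, 288 and 285 CPM with DOX against 346 and 332 CPM with DMSO, a log2 change of -0.25 (SE 0.029, adjusted p = 7.9e-08). DUS1L, which makes dihydrouridine in tRNA, had 92.6, 93.3 and 92.6 CPM against 107 and 108 CPM and fell by 0.21 (adjusted p = 0.00092). WARS1, the cytosolic tryptophanyl-tRNA synthetase, had 303, 320 and 308 CPM against 354 and 350 CPM and fell by 0.18 (adjusted p = 0.00029). RPS9, of the small ribosomal subunit, had 273, 266 and 265 CPM against 300 and 301 CPM and fell by 0.16 (adjusted p = 0.00098). The groups did not overlap in any of the 4, as in every called gene. All 10 also fell with sgZBTB11 #2. In sgNS cells the log2 change was above 0 in BMS1 (0.26), TXNIP (0.21), WARS1 (0.15) and RPS9 (0.33), and below 0 in AKR1B1 (-0.16) and ZBTB11 (-0.15). It was -0.09 in ETV4 (adjusted p = 0.4), -0.06 in DUS1L, -0.04 in CCDC57 and -0.03 in MAN2C1. On the log2(TPM + 1) scale with limma, CENPT, SLC25A36, FOSB, SLC39A10, AKR1B1, TXNIP and RPS9 kept their calls, and the other 7 did not: besides ZBTB11, MAN2C1 (-0.27, adjusted p = 0.1), ETV4 (-0.34, 0.2), BMS1 (-0.23, 0.15), CCDC57 (-0.23, 0.35), WARS1 (-0.15, 0.067) and DUS1L (-0.21, 0.22). AKR1B1, BMS1, CCDC57, WARS1, DUS1L and SLC39A10 are named because they held, and so after their values were seen.

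**Figure D3:**
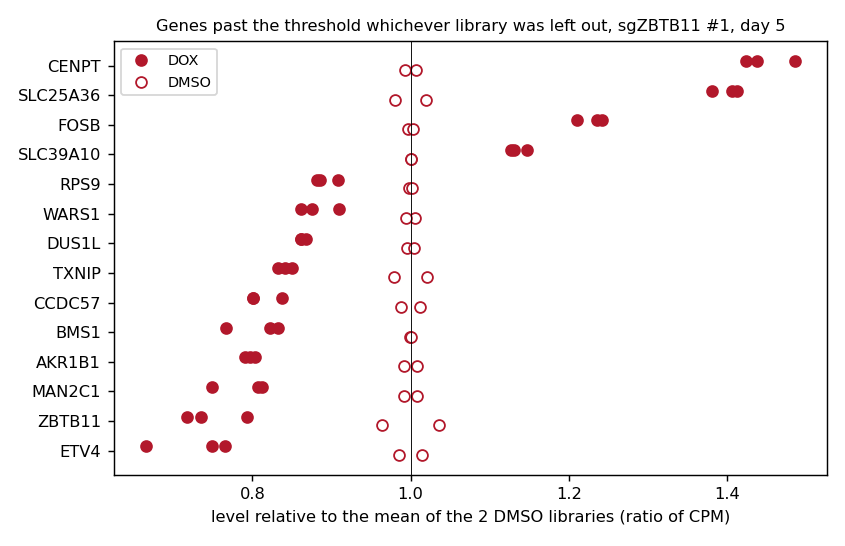
Levels in each sgZBTB11 #1 day 5 library of the 14 genes called in every run without 1 library, as the ratio of CPM to the mean of the 2 DMSO libraries, with filled points for DOX and open points for DMSO. CENPT and SLC25A36 lie farthest above 1, ETV4 and ZBTB11 farthest below. As in every called gene, filled and open points do not overlap.

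The other large increases were less secure. SOCS3, an inhibitor of cytokine receptor signalling, had 34.7, 39.8 and 34.6 CPM in DOX libraries against 28 and 29.6 CPM in DMSO libraries, a log2 change of 0.33 (adjusted p = 0.0017) that missed the threshold without DMSO replicate 1 (0.13). ZNF408, a zinc finger gene, rose by 0.36 (adjusted p = 0.0034), a call lost without DMSO replicate 1 (0.052) or 2 (0.08). RBM48, of the minor spliceosome, rose by 0.41 (adjusted p = 0.033), lost without DMSO replicate 1 (0.69), DOX replicate 1 (0.12) or DOX replicate 3 (0.15). ABRACL rose by 0.29 (adjusted p = 0.025), lost without DMSO replicate 1 (0.15) or 2 (0.26) or DOX replicate 1 (0.073) or 3 (0.14). ATP8A1, a phospholipid flippase, rose by 0.29 (adjusted p = 0.033), lost without DMSO replicate 1 (0.5) or 2 (0.11) or DOX replicate 1 (0.21) or 2 (0.14). ANKRD12 rose by 0.32 (adjusted p = 0.031), lost without DMSO replicate 1 (0.65) or DOX replicate 1 (0.22) or 3 (0.088), and its estimate was -0.02 on the log2(TPM + 1) scale. GOLGA8R, one of a family of near-identical golgin copies, had 0.69 (adjusted p = 0.029), lost without DMSO replicate 1 (0.17) or 2 (0.28) or DOX replicate 1 (0.2) or 3 (0.05). RWDD4 at 0.31 (adjusted p = 0.042) and the readthrough MSANTD3-TMEFF1 at 0.59 (0.033) lost their calls in all 5 runs. For RWDD4 these had adjusted p of 0.084 and 0.43 without DMSO replicate 1 or 2 and 0.074, 0.13 and 0.1 without DOX replicate 1, 2 or 3, and for MSANTD3-TMEFF1 0.57, 0.06, 0.17, 0.062 and 0.071 in the same order. Reads of GOLGA8R and MSANTD3-TMEFF1 may be shared with their copies or parent genes.

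Several of the other large decreases were lost in 1 run each. RIN1, an effector of RAS and an activator of RAB5, had 31.7, 34 and 28.9 CPM in DOX libraries against 46 and 37.9 CPM in DMSO libraries, a log2 change of -0.42 (adjusted p = 0.0035, but 0.29 without DMSO replicate 1). ACBD6, an acyl-CoA binding protein gene, had 19.5, 18.7 and 20 CPM against 26.9 and 25.5 CPM and fell by 0.43 (adjusted p = 0.0017, 0.12 without DMSO replicate 1). C17orf75 had 25.5, 24.6 and 24.3 CPM against 32.5 and 29.9 CPM and fell by 0.33 (adjusted p = 0.0053, 0.32 without DMSO replicate 1). TMEM86B, a lysoplasmalogenase gene, had 20.4, 21.3 and 20.8 CPM against 25.9 and 27.4 CPM and fell by 0.35 (adjusted p = 0.0038, 0.12 without DMSO replicate 2). In each of these genes the DOX libraries lay below the DMSO libraries, as in every gene called lower. EEFSEC, the elongation factor for selenocysteine, fell by 0.45 (adjusted p = 0.029), lost without DMSO replicate 1 (0.32) or 2 (0.16) or DOX replicate 1 (0.11) or 3 (0.11). The long noncoding RNA INKILN fell by 0.34 (adjusted p = 0.0085), lost without DMSO replicate 1 (0.3) or DOX replicate 1 (0.1) or 3 (0.05). SAC3D1 fell by 0.43 (adjusted p = 0.037), and its call was lost in all 5 runs, at 0.37 and 0.16 without DMSO replicate 1 or 2 and 0.1, 0.058 and 0.16 without DOX replicate 1, 2 or 3. ENSG00000307083 fell by 0.55 (adjusted p = 0.016), lost without DMSO replicate 1 (0.16) or 2 (0.14) or DOX replicate 2 (0.06) or 3 (0.05). C4A, whose near-identical copy is C4B, fell by 0.44 (adjusted p = 0.03), lost without DMSO replicate 1 (0.66) or DOX replicate 1 (0.073), 2 (0.062) or 3 (0.14). HNRNPA1L2, a retrocopy of HNRNPA1, fell by 0.41 (adjusted p = 0.023), lost without DMSO replicate 1 (0.24) or 2 (0.16) or DOX replicate 1 (0.072) or 3 (0.14).

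Nuclear genes for mitochondrial proteins are the known targets of ZBTB11, and few of them were called with sgZBTB11 #1 at day 5. Of the 50 genes of the large mitochondrial ribosomal subunit, 34 had an estimate below 0. At an unadjusted p under 0.05 in edgeR's test, 12 of them were lower and 0 higher, against 1989 of 16809 tested genes either way. Of the 50 genes of the large mitochondrial ribosomal subunit 0 rose and 3 fell (6% called, against 1.14% of all tested genes), with a median log2 change of -0.04 against 0 for all tested genes and a range of -0.42 to 0.13. With sgZBTB11 #2 16 of the 50 fell, against 6% of all tested genes, median -0.05. In sgNS cells 18 rose, against 8.87% of all tested genes, median 0.09. On the log2(TPM + 1) scale the sgNS median of the list was -0.10 and that of all genes -0.16. MRPL48 had 9.23, 8.93 and 9.30 CPM in DOX libraries against 13.1 and 11.4 CPM in DMSO libraries, a log2 change of -0.42 (SE 0.1, adjusted p = 0.024). Its call was lost without DMSO replicate 1 (0.55) or DOX replicate 1 (0.082), 2 (0.077) or 3 (0.076). MRPL40 had 44.6, 49.5 and 48 CPM against 55.5 and 57.6 CPM, a log2 change of -0.26 (SE 0.052, adjusted p = 0.0038), lost without DMSO replicate 2 (0.12) or DOX replicate 1 (0.064). MRPL3 had 74.7, 79.4 and 79.2 CPM against 85.7 and 92.6 CPM, a log2 change of -0.20 (SE 0.043, adjusted p = 0.0098), lost without DMSO replicate 2 (0.31) or DOX replicate 1 (0.091). These 3 large-subunit genes did not overlap between DOX and DMSO libraries, as in every called gene. The count of 3 was 1 without DMSO replicate 2 and 0 without DOX replicate 1, and 0 on the log2(TPM + 1) scale, where the median was 0 and that of all genes 0.03.

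Of the 32 genes of the small mitochondrial ribosomal subunit 0 were called by edgeR's quasi-likelihood test, median -0.02, and 4 had an unadjusted p under 0.05, all lower. The nuclear subunits of complex I, which oxidises NADH, had 0 of 37 called and a median of -0.04, with NDUFB7 at -0.23 (adjusted p = 0.096) and NDUFV1 at -0.14 (0.081). Complexes III and IV had 0 of 20 called, median -0.04, and ATP synthase 0 of 20, median -0.06. Unadjusted p values under 0.05 were found for 9, 5 and 7 genes of these 3 lists, all of them lower. Such counts are to be read against 1989 of 16809 tested genes with an unadjusted p under 0.05, either way. Coenzyme Q synthesis had 0 of 13 called (median -0.03) and 1 at an unadjusted p under 0.05, with COQ3, a methyltransferase of the pathway, at -0.32 (adjusted p = 0.15). Iron-sulfur cluster assembly had 0 of 16 (median -0.01) and the TCA cycle with pyruvate entry 0 of 25 (median -0.04), with 1 gene higher in the first and 1 lower in the second at an unadjusted p under 0.05. Estimates below 0 were found for 20 of 32 genes of the small mitochondrial ribosomal subunit and 30 of 37 of complex I. Complexes III and IV had 18 of 20 such estimates, and ATP synthase 18 of 20. Coenzyme Q synthesis had 10 of 13, iron-sulfur cluster assembly 8 of 16 and the TCA cycle with pyruvate entry 20 of 25. The median over all tested genes was 0. DESeq2 also called 0 genes in each of these 7 lists, and 2 of the large mitochondrial ribosomal subunit.

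Import and gene expression inside mitochondria had few members called lower, to be read against 0.773% of all tested genes lower. Estimates lay below 0 in 24 of 32 import genes and in 30 of 39 genes of mitochondrial DNA expression and tRNA charging. AGK, a lipid kinase that is also a subunit of the TIM22 carrier translocase, was the 1 of 32 import genes called (median of the list -0.05). It had 23.7, 23.1 and 24.6 CPM in DOX libraries against 29.6 and 32 CPM in DMSO libraries, with no overlap and a log2 change of -0.37 (adjusted p = 0.0016, but 0.11 without DMSO replicate 2). With sgZBTB11 #2 its change was -0.59. Of 39 genes of mitochondrial DNA expression and tRNA charging 2 fell, median -0.05: VARS2, the mitochondrial valyl-tRNA synthetase, at -0.18 (adjusted p = 0.02), and SLIRP, the RNA-binding partner of LRPPRC, at -0.21 (0.05 as rounded, just under the threshold). VARS2 lost its call in all 5 runs, at 0.33 and 0.14 without DMSO replicate 1 or 2 and 0.078, 0.076 and 0.05 without DOX replicate 1, 2 or 3, and SLIRP lost it in 4 of 5, without DMSO replicate 1 (0.051) or 2 (0.56) or DOX replicate 1 (0.17) or 3 (0.28). Outside these lists, VWA8, a mitochondrial ATPase, fell by 0.38 (adjusted p = 0.017), lost without DMSO replicate 1 (0.14) or 2 (0.16) or DOX replicate 1 (0.1). TXN2, the mitochondrial thioredoxin, had 24.5, 24.1 and 24.1 CPM with DOX against 30.3 and 29.9 CPM with DMSO and fell by 0.31 (adjusted p = 0.012), lost without DMSO replicate 1 (0.21) or 2 (0.089). GABPA, the DNA-binding subunit of GABP, had 32.3, 29 and 30.4 CPM against 23.8 and 26.8 CPM and rose by 0.28 (adjusted p = 0.048), lost without DMSO replicate 1 (0.65) or 2 (0.066) or DOX replicate 1 (0.24) or 3 (0.11). TXN2 and GABPA were chosen after their values were seen.

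The 13 mRNAs of mitochondrial DNA had 1 call, lower, against 0.773% of all tested genes, and a median of -0.06. Of the 13, 7 had an estimate below 0. At an unadjusted p under 0.05 in edgeR's test, 7 were lower and 0 higher, against 1989 of 16809 tested genes either way. MT-ND1, a complex I subunit, had 11700, 11800 and 11600 CPM in DOX libraries against 12900 and 12500 CPM in DMSO libraries, a log2 change of -0.12 (adjusted p = 0.02). Its call was lost without DMSO replicate 1 (0.47) or 2 (0.076) or DOX replicate 1 (0.074) or 3 (0.093). DESeq2 called 4 of the 13, all lower. In sgNS cells 12 of the 13 rose, against 8.87% of all tested genes, median 0.26, and with sgZBTB11 #2 the median was -0.04.

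Genes of the cytosolic ribosome were the largest group to fall. Of 78 tested 0 rose and 22 fell (28.2%, against 0.773% of all tested genes lower), and 76 had an estimate below 0. The shifts were small, between -0.19 and 0.04 with a median of -0.09. RPL21 of the large subunit had 225, 234 and 233 CPM in DOX libraries against 262 and 263 CPM in DMSO libraries, a log2 change of -0.19 (adjusted p = 0.0013). RPS27A, a fusion of ubiquitin with a small-subunit protein, had 248, 263 and 260 CPM against 289 and 284 CPM, a log2 change of -0.16 (adjusted p = 0.0038). The DOX libraries of both genes lay below the DMSO libraries, but without DMSO replicate 1 the adjusted p was 0.051 for RPL21 and 0.17 for RPS27A, which also missed the threshold without DOX replicate 1 (0.062). RPS9, described above, was called in all 5 runs. The number called fell to 2 without DMSO replicate 1, 7 without DMSO replicate 2, 9 without DOX replicate 1 and 11 without DOX replicate 3, and was 21 without DOX replicate 2. On the log2(TPM + 1) scale it was 2, with a median of -0.06 against 0.03 for all genes. With a trend in transcript length removed it was 13, with a median of -0.05, and in 1 fit of all 70 libraries it was 8. It was 24 with DESeq2, 26 without a filter on low counts and 30 among genes with a mean of at least 5 CPM. With sgZBTB11 #2, 59 fell and 2 rose, against 6% and 3% of all tested genes, median -0.17. In sgNS cells all 78 rose, against 8.87% of all tested genes, median 0.33. This median stayed above 0 with the length trend removed (0.20) and on the log2(TPM + 1) scale (0.14, against -0.16 for all genes). These genes have many processed pseudogenes, so the split of reads among copies is uncertain.

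Immediate early genes, the transcription factors and secreted proteins that growth factor and stress signals switch on first, were the group with the most increases. Of 24 tested 7 rose and 0 fell (29.2%, against 0.363% of all tested genes higher), with a median of 0.11 and a range of -0.14 to 1.16. At an unadjusted p under 0.05, 14 were higher and 2 lower, against 1989 of 16809 tested genes either way. ATF3, a stress-induced repressor, had 5.05, 4.73 and 5.53 CPM in DOX libraries against 2.85 and 3.24 CPM in DMSO libraries, a log2 change of 0.75 (SE 0.18, adjusted p = 0.018). NR4A1, an orphan nuclear receptor, had 68.9, 74.1 and 67.7 CPM against 58.9 and 57.6 CPM, a log2 change of 0.27 (SE 0.051, adjusted p = 0.0017). CCN1, a matricellular protein, had 109, 107 and 106 CPM against 89.7 and 94.1 CPM, a log2 change of 0.22 (SE 0.039, adjusted p = 0.00086). In all 7 that rose every DOX library lay above every DMSO library, as in every gene called higher. The zinc finger factor EGR3 had 14.8, 14 and 14.7 CPM against 12.3 and 8.95 CPM, a log2 change of 0.45 (adjusted p = 0.023). Its relative EGR2 had 9.10, 11 and 9.56 CPM against 7.15 and 7.36 CPM, a log2 change of 0.44 (adjusted p = 0.042). KLF6, a Krüppel-like factor, had 58.7, 58.5 and 61.7 CPM against 52.8 and 50.6 CPM, a log2 change of 0.21 (adjusted p = 0.019). The best-known members did not pass the test, with FOS at 0.10 (adjusted p = 0.074), JUN at 0.11 (0.096), EGR1 at 0.08 (0.21) and MYC at -0.11 (0.35), genes that were chosen after their values were seen.

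Of these calls only that of FOSB held without any 1 library. Without DMSO replicate 1 the adjusted p was 0.37 for ATF3, 0.12 for CCN1, 0.12 for KLF6 and 0.43 for EGR2, and without DMSO replicate 2 it was 0.083 for ATF3, 0.51 for EGR3, 0.062 for NR4A1, 0.21 for KLF6 and 0.17 for EGR2. Without DOX replicate 1 it was 0.061 for ATF3, 0.099 for EGR3 and 0.057 for EGR2, without DOX replicate 2 it was 0.18 for EGR2, and without DOX replicate 3 it was 0.093 for ATF3, 0.088 for EGR3, 0.12 for KLF6 and 0.087 for EGR2. The count of immediate early genes called was 3 without DMSO replicate 1, 2 without DMSO replicate 2, 4 without DOX replicate 1, 6 without DOX replicate 2, 3 without DOX replicate 3 and 2 on the log2(TPM + 1) scale, where the median was 0.14. The median of all genes on that scale was 0.03. The count was 11 of 21 among genes with a mean of at least 5 CPM. With sgZBTB11 #2, 10 of the 24 rose, against 3% of all tested genes, median 0.10, among them EGR2 (0.55), EGR3 (0.32) and KLF6 (0.26). In sgNS cells 14 fell and 0 rose, against 8.47% and 8.87% of all tested genes, median -0.17, with KLF6 at -0.46, EGR3 at -0.41, NR4A1 at -0.35 and CCN1 at -0.20. NR4A1, CCN1 and KLF6 were chosen after their values were seen.

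**Figure D4:**
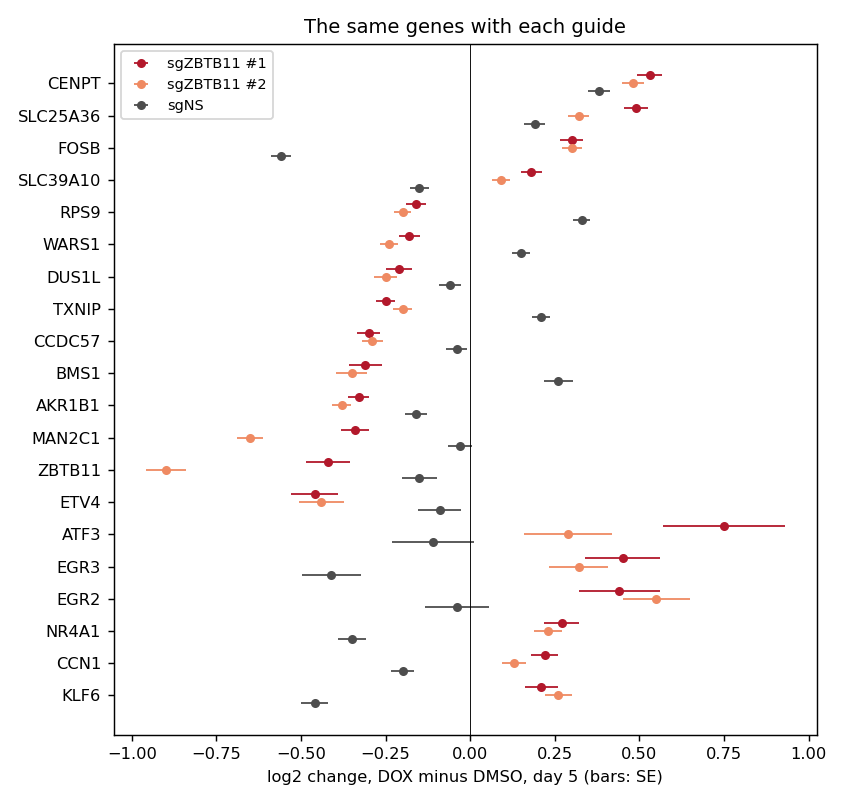
Log2 change (DOX minus DMSO, day 5, bars show the SE) with sgZBTB11 #1, sgZBTB11 #2 and sgNS for the 14 genes called without any 1 library and for 6 immediate early genes. FOSB is at 0.30, 0.30 and -0.56 and RPS9 at -0.16, -0.20 and 0.33, while CENPT is above 0 with all 3 guides.

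The remaining gene groups held few calls, to be read against 0.363% of all tested genes higher and 0.773% lower. In the ATF4 integrated stress response 2 of 24 rose, ATF3 and DDIT4, an inhibitor of mTORC1 at 0.17 (adjusted p = 0.046), while the median was -0.07. DDIT4 lost its call without DMSO replicate 1 (0.38) or 2 (0.18) or DOX replicate 2 (0.12) or 3 (0.18). In glycolysis and the hypoxia response 2 of 29 fell, median -0.04: ENO1, enolase, at -0.15 (adjusted p = 0.011) and ALDOA, aldolase, at -0.14 (0.0097). Without DMSO replicate 1 or 2 or DOX replicate 1 or 3 these stood at 0.22, 0.087, 0.066 and 0.06 for ENO1 and at 0.25, 0.069, 0.06 and 0.074 for ALDOA. FASN, fatty acid synthase, was the 1 of 29 genes of cholesterol and fatty acid synthesis called, at -0.14 (adjusted p = 0.015; median of the list -0.03). It was lost without DMSO replicate 1 (0.22) or 2 (0.12) or DOX replicate 1 (0.083) or 3 (0.087).

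DNA replication genes had a median of -0.11, with 33 of 37 estimates below 0 and 1 call, MCM5 of the replicative helicase at -0.31 (adjusted p = 0.031). That call was lost without DMSO replicate 1 (0.16) or 2 (0.29) or DOX replicate 2 (0.14) or 3 (0.088), and its partner MCM4 stood at -0.04 (0.81). At an unadjusted p under 0.05, 13 of the 37 were lower and 0 higher, against 1989 of 16809 tested genes either way. The G2 and mitosis genes had 0 of 35 called (median -0.06) and the replication-dependent histones 0 of 15 (median 0.05), with 5 and 1 at an unadjusted p under 0.05. DESeq2 called 0 in all 3 of these lists. Of RAS-MAPK output genes 2 of 23 fell, median -0.02: ETV4, described above, and LIF, a cytokine of PDAC cells, at -0.24 (adjusted p = 0.02), lost without DMSO replicate 1 (0.25) or 2 (0.14) or DOX replicate 1 (0.067) or 2 (0.09). NFKB2, an NF-kB subunit of the noncanonical branch, was the 1 of 16 NF-kB genes called, at -0.21 (adjusted p = 0.026; median of the list 0.01), and was lost in all 5 runs, at 0.34 and 0.14 without DMSO replicate 1 or 2 and 0.1, 0.055 and 0.093 without DOX replicate 1, 2 or 3.

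MCL1, an anti-apoptotic BCL2 relative, was the 1 of 30 p53 and apoptosis genes called, at 0.12 (adjusted p = 0.037; median of the list 0.01), lost without DMSO replicate 1 (0.51) or 2 (0.087) or DOX replicate 1 (0.19) or 2 (0.1). FTL, ferritin light chain, was the 1 of 21 NRF2 and ferritin genes called, at -0.14 (adjusted p = 0.016; median -0.05), lost without DMSO replicate 1 (0.33) or 2 (0.087) or DOX replicate 1 (0.15). COL17A1, a hemidesmosomal collagen, was the 1 of 26 integrin, laminin and collagen genes called, at -0.14 (adjusted p = 0.01; median 0.02), lost without DMSO replicate 1 (0.22) or 2 (0.08) or DOX replicate 1 (0.11). The interferon genes had 0 of 17 called by edgeR and 0 by DESeq2, median -0.02. At an unadjusted p under 0.05, 2 of them were higher and 1 lower, against 1989 of 16809 tested genes either way. The MondoA list had TXNIP as its 1 call of 8, with a median of -0.03.

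**Figure D5:**
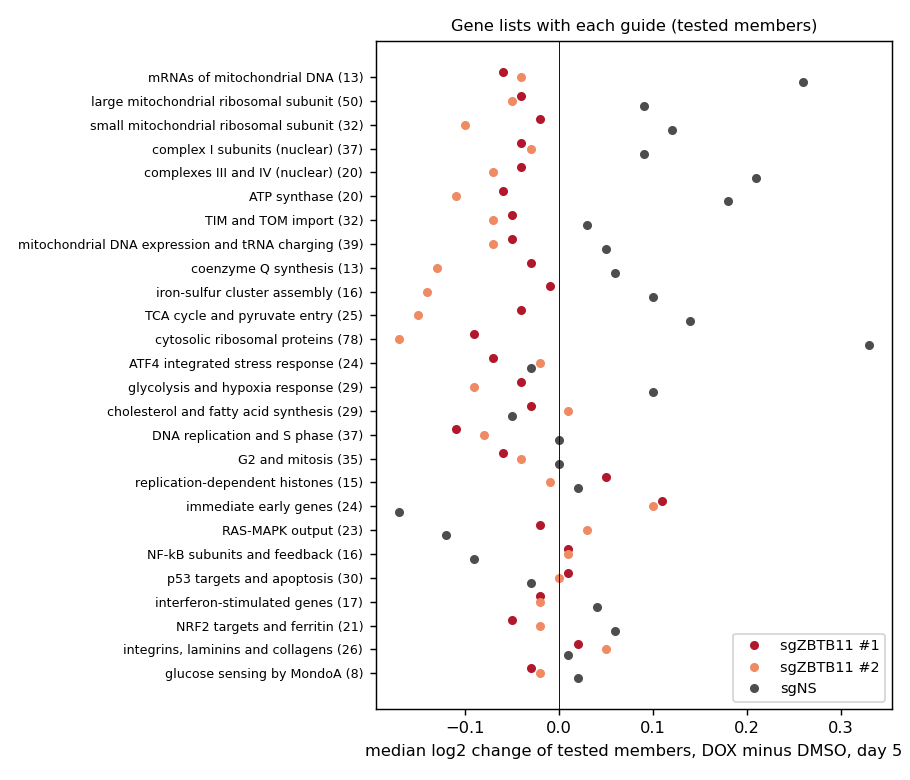
Median log2 change (DOX minus DMSO, day 5) over the tested members of each gene list with sgZBTB11 #1, sgZBTB11 #2 and sgNS, with the number tested in parentheses. For the cytosolic ribosomal proteins the medians are -0.09, -0.17 and 0.33, and for the immediate early genes 0.11, 0.10 and -0.17.

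The DOX response of sgZBTB11 #1 cells was then set against that of sgNS cells, which received DOX without a guide to ZBTB11. Each guide was in its own cells, so the guide and other differences between the cells cannot be told apart here. DOX called 191 genes with sgZBTB11 #1 and 2915 in sgNS cells (17.3%, 8.87% higher and 8.47% lower). The difference between the changes, sgZBTB11 #1 minus sgNS, was called in 1932 genes (11.5%), 886 higher (5.27%) and 1046 lower (6.22%). Of the 61 genes that rose with sgZBTB11 #1, 4 also rose in sgNS cells (6.56% of the 61 and 0.268% of the 1491 that rose there), whereas 29 fell there (47.5% of the 61 and 2.04% of the 1424 that fell there). Of the 130 that fell, 17 also fell in sgNS cells (13.1% and 1.19%) and 48 rose there (36.9%, and 3.22% of the 1491). Leaving out DMSO replicate 1 or 2 or DOX replicate 1, 2 or 3 of sgZBTB11 #1, those that rose here and fell with sgNS numbered 5 of 10, 12 of 26, 13 of 21, 19 of 41 and 11 of 21, and those that fell here and rose with sgNS 7 of 17, 17 of 39, 17 of 53, 44 of 99 and 25 of 64, counts added after the data were seen. Some of the largest differences were in genes that moved in sgNS cells and did not pass the test with sgZBTB11 #1. TOMM7, a small subunit of the TOM import pore, had 110, 123 and 113 CPM with DOX against 123 and 121 CPM with DMSO in sgZBTB11 #1 cells, a log2 change of -0.09 (adjusted p = 0.57), and 180, 193 and 181 against 99.4, 109 and 97.7 CPM in sgNS cells, a log2 change of 0.86. The difference was -0.95. PGM1, phosphoglucomutase, had -0.27 (adjusted p = 0.22) here and 0.64 in sgNS cells, a difference of -0.91, and the zinc finger gene ZBTB37 differed by 1.05. These differences were called in all 11 runs without 1 library.

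By group, against 6.22% of all tested genes lower and 5.27% higher, the difference from sgNS was called lower in 77 of 78 cytosolic ribosomal protein genes, median -0.43, and higher in 14 of 24 immediate early genes, median 0.35. It was called lower in 12 of 13 mRNAs of mitochondrial DNA, median -0.34, and in 16 of 50 genes of the large mitochondrial ribosomal subunit, median -0.17. These sizes depended on the processing. TPM values were not scaled further between libraries, so medians on that scale are to be read against that of all genes. On the log2(TPM + 1) scale the medians were, in the same order, -0.19, 0.47, -0.09 and 0.07, against 0.19 for all genes. Called there were 55 lower and 1 higher, 18 higher, 8 lower, and 4 lower and 5 higher. With the length trend removed the medians were -0.24, 0.34, -0.23 and -0.03. The share of counts from mitochondrial DNA was 32.8% to 33.1% in DOX and 33.5% to 33.7% in DMSO libraries of sgZBTB11 #1, against 29.4% to 29.8% in DOX and 26% to 26.4% in DMSO libraries of sgNS, and its part in these differences was not tested. Among the 14 held genes the largest differences were in FOSB (0.86, adjusted p = 3.3e-21), BMS1 (-0.57, 2.2e-09), RPS9 (-0.49) and TXNIP (-0.46, 5.3e-13). CENPT differed by 0.16 (adjusted p = 0.026), a call lost in 6 of 11 runs: without sgZBTB11 #1 DMSO replicate 1 (0.071), DMSO replicate 2 (0.14) or DOX replicate 3 (0.077), and without sgNS DMSO replicate 2 (0.07), DOX replicate 1 (0.053) or DOX replicate 3 (0.1). AKR1B1 differed by -0.16 (adjusted p = 0.013), lost without sgZBTB11 #1 DMSO replicate 1 (0.077) and without sgNS DMSO replicate 3 (0.088) or DOX replicate 3 (0.06). DUS1L at -0.15 (adjusted p = 0.047) lost its call in all 11 runs, at 0.051 to 0.12.

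The second guide, which lowered ZBTB11 further, called 1513 genes at day 5 (9%, 3% higher and 6% lower). Of the 130 genes that fell with sgZBTB11 #1, 68 also fell with sgZBTB11 #2 (52.3% of the 130 and 6.75% of the 1008 that fell with sgZBTB11 #2), and 4 rose. Of the 61 that rose, 20 also rose (32.8%, and 3.96% of 505) and 1 fell. Leaving out DMSO replicate 1 or 2 or DOX replicate 1, 2 or 3 of sgZBTB11 #1, the genes lower with both guides numbered 14 of 17, 30 of 39, 35 of 53, 60 of 99 and 37 of 64, and those higher with both 7 of 10, 9 of 26, 13 of 21, 16 of 41 and 10 of 21. Libraries are not shared between the guides, but both DOX responses hold whatever DOX does by itself.

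The difference between the changes, sgZBTB11 #1 minus sgZBTB11 #2, was called in 434 genes (2.58%), 299 higher (1.78%) and 135 lower (0.803%). MAN2C1 fell less with sgZBTB11 #1, at -0.34 against -0.65, a difference of 0.31 (adjusted p = 0.00024). SLC25A36 rose more, at 0.49 against 0.32, a difference of 0.17 (adjusted p = 0.029) that was lost without sgZBTB11 #1 DMSO replicate 1 (0.24), DOX replicate 1 (0.066) or DOX replicate 3 (0.068), and without sgZBTB11 #2 DMSO replicate 2 (0.13), DOX replicate 1 (0.072) or DOX replicate 2 (0.077). TOMM7 differed by 0.78, with 82.0, 83.4 and 80.9 CPM in DOX libraries of sgZBTB11 #2 and 160, 146 and 143 CPM in its DMSO libraries. SKP1, a subunit of SCF ubiquitin ligases, differed by 0.73, at 145, 156 and 135 CPM with DOX and 145 and 152 CPM with DMSO of sgZBTB11 #1 and at a log2 change of -0.76 with sgZBTB11 #2. PLPPR3 differed by -0.69, with -0.16 for sgZBTB11 #1 and 0.54 for sgZBTB11 #2, and RNF26 by -0.64, with -0.28 and 0.36. Those 4 were called in all 11 runs without 1 library of either guide. Of the 78 cytosolic ribosomal protein genes 28 differed higher and 3 lower, against 1.78% and 0.803% of all tested genes, median 0.08. Of the 24 immediate early genes 0 differed higher and 3 lower, median 0.00.

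At day 3 the same guide called 122 of 16645 genes (0.733%), 32 higher (0.192%) and 90 lower (0.541%). Of the 130 genes lower at day 5, 30 were also lower at day 3 (23.1% of the 130 and 33.3% of the 90), and 126 had an estimate below 0 there. Of the 61 higher at day 5, 9 were higher at day 3 (14.8%, and 28.1% of 32), and 55 had an estimate above 0. In both directions, 0 genes were called the other way. The day 5 change minus the day 3 change was called in 1 of 17469 genes (0.00572%; 0% higher and 0.00572% lower), with 919 at an unadjusted p under 0.05, 4 called by DESeq2 and 0 without a filter on low counts. That gene was TXNIP, at -0.25 at day 5 and -0.03 at day 3 (adjusted p = 0.8), a difference of -0.22 (0.028). Its call was kept only without day 3 DOX replicate 3 or day 5 DMSO replicate 2, and was lost in the other 9 of 11 runs. Its changes at the earlier times were 0.22 at 5 hr and -0.30 at day 1. Other held genes stood at day 3 at -0.35 (MAN2C1), -0.31 (AKR1B1), -0.30 (ETV4, adjusted p = 0.029), -0.26 (CCDC57), -0.21 (DUS1L) and -0.05 (WARS1), against -0.34, -0.33, -0.46, -0.30, -0.21 and -0.18 at day 5.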

How the data were processed

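Poly(A) RNA of 70 libraries was sequenced as paired reads, per the labels' protocols. The authors deposited expected counts per gene from RSEM on GRCh38.p14, per the submitters' processing notes, together with TPM values per gene; which annotation release and strand setting they used is not stated in these sources. Expected counts (5.13% of values not whole) were rounded. Of 78932 genes, 32891 had no count in any library. Genes were kept with filterByExpr of edgeR 4.0.16 (R 4.3.3), which left 16809, scaled by TMM, and tested with edgeR's quasi-likelihood test (robust) in 1 fit of the 17 day 5 libraries with a mean per group, Benjamini-Hochberg adjustment over all genes tested and a threshold of 0.05. The 5 libraries of sgZBTB11 #1 gave the main comparison, and differences between guides were tested as interactions. The day 5 minus day 3 difference came from 1 fit that also held the day 3 libraries, with 17469 genes. Within-group pairs of sgZBTB11 #1 libraries differed by 1.51 to 1.59 times the chi-square per degree of freedom of pure counting, over genes with at least 20 counts. Of the pairs 0 were identical, so no library was a copy of another, which does not show that they are separate cultures. The alternatives used limma 3.58.1 on log2(TPM + 1) and log2(TPM + 0.1), for genes over 1 TPM in at least 2 libraries, and DESeq2 1.42.0, other filters and scalings, and each library left out in turn. The edgeR fit of the main comparison was tested on simulated counts with known changes, and the other steps were not. A level in CPM is not length-corrected and is compared only within a gene. Antisense, overlapping and near-identical genes are uncertain where strand or copy matters.

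The members and the 31 gene lists (800 symbols, of which 2 were missing from the tables), 4 of them cell type markers, were chosen with earlier results of these data known. Genes named are ZBTB11 and its tested neighbours, the 15 largest increases and 15 largest decreases past the threshold with a mean of at least 5 CPM and no overlap between DOX and DMSO libraries, the 5 largest differences each way between guides, up to 4 called members of each list (the 2 largest where 0 passed), 6 genes from earlier results (COQ3, AGK, MRPL48, C17orf75, MCM4 and EGR3), and genes that the text says were chosen after their values were seen. Promoter sequences are from RefSeq on GRCh38.p14, 250 bases before to 50 after the start. Of the genes this rule names, 1 is not reported here.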

Additional observations from a re-analysis of the deposited data

Results flagged for a closer look

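The DOX response of sgZBTB11 #1 at day 5 differed from that of sgNS in 1932 genes, from that of sgZBTB11 #2 in 434 and from its own day 3 response in 1, by edgeR's test of the difference of changes. Among the genes named above, the difference from sgNS in log2 units was above 0 in these genes of the largest increases or of single lists: MSANTD3-TMEFF1 (1.16), ZBTB37 (1.05), GOLGA8R (0.83), ANKRD12 (0.64), RBM48 (0.63), SOCS3 (0.63), SENP7 (0.42), MCL1 (0.39), GABPA (0.38), SLC39A10 (0.33), RWDD4 (0.32), ATP8A1 (0.31), ZNF408 (0.30), SLC25A36 (0.30) and CENPT (0.16). Among immediate early genes it was above 0 in FOSB (0.86), EGR3 (0.86), ATF3 (0.86), KLF6 (0.67), NR4A1 (0.62), EGR2 (0.48) and CCN1 (0.42).

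The difference from sgNS was below 0 in genes of the mitochondrion, TOMM7 (-0.95), MRPL40 (-0.57), MRPL48 (-0.56), AGK (-0.42), TXN2 (-0.41), MRPL3 (-0.36), MT-ND1 (-0.35), SLIRP (-0.32) and VARS2 (-0.22). In genes of the cytosolic ribosome and its assembly it was -0.90 in RPS27A, -0.57 in BMS1, -0.49 in RPS9, -0.44 in RPL21 and -0.37 in RPL24. In metabolic and stress genes it was -0.91 in PGM1, -0.46 in TXNIP, -0.44 in ENO1, -0.35 in FTL, -0.33 in WARS1, -0.31 in MAN2C1, -0.18 in ALDOA and -0.16 in AKR1B1. In the rest it was -0.78 in EEFSEC, -0.76 in SKP1, -0.70 in INKILN, -0.45 in ACBD6, -0.43 in HNRNPA1L2, -0.42 in TMEM86B, -0.38 in C17orf75, -0.37 in ETV4, -0.26 in CCDC57, -0.26 in ZBTB11, -0.15 in DUS1L and -0.14 in COL17A1.

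Of these, 18 lost the call without 1 library of either guide in at least 1 of 11 runs. Leaving out sgZBTB11 #1 DMSO replicate 1 ended the call alone for RBM48 (adjusted p = 0.055), MRPL48 (0.068), ATF3 (0.057), C17orf75 (0.055) and GABPA (0.11), and leaving out its DMSO replicate 2 did so for GOLGA8R (0.082) and SLIRP (0.068). COL17A1 lost it without sgZBTB11 #1 DMSO replicate 1 (0.11) or DOX replicate 1 (0.096) and without sgNS DMSO replicate 1 (0.06) or DOX replicate 2 (0.077). Further calls were lost in 6 or more runs: SENP7 in 8 (0.061 to 0.2), ZNF408 in 8 (0.066 to 0.17), RWDD4 in 8 (0.056 to 0.33), HNRNPA1L2 in 8 (0.05 to 0.15), ATP8A1 in 7 (0.053 to 0.18), EGR2 in 6 (0.056 to 0.12), and ZBTB11, CENPT and DUS1L as given above. AKR1B1 lost it in 3, also given above.

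The difference from sgZBTB11 #2 was above 0 in TOMM7 (0.78), SKP1 (0.73), ZBTB11 (0.48), SOCS3 (0.35), MAN2C1 (0.31), MRPL40 (0.25), DDIT4 (0.23), MCL1 (0.18), SLC25A36 (0.17) and RPS27A (0.17). It was below 0 in PLPPR3 (-0.69), RNF26 (-0.64), ENSG00000307083 (-0.63), C4A (-0.52), LIF (-0.30) and FASN (-0.21). Leaving out sgZBTB11 #1 DMSO replicate 1 ended the call alone for SOCS3 (adjusted p = 0.1) and MCL1 (0.11), and leaving out its DMSO replicate 2 did so for ENSG00000307083 (0.064). LIF lost it without sgZBTB11 #1 DMSO replicate 1 (0.081), DMSO replicate 2 (0.058) or DOX replicate 2 (0.051) and without sgZBTB11 #2 DOX replicate 2 (0.058). DDIT4 lost it in 5 runs (0.051 to 0.1), C4A in 6 (0.053 to 0.38), RPS27A in 6 (0.055 to 0.12), MRPL40 in 9 (0.056 to 0.2) and SLC25A36 in 6 (0.066 to 0.24). The single gene that differed between day 5 and day 3 was TXNIP.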

How the results depend on the processing

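The count of 191 genes was 183 with RLE scaling, 178 without genes of mitochondrial DNA, 250 without a filter, 266 at a mean of at least 5 CPM, 182 with the length trend removed, 128 in 1 fit of all 70 libraries, 244 in a fit of the 5 libraries alone and 124 with DESeq2. With limma it was 19 on the log2(TPM + 1) scale (13 higher, 6 lower) and 20 on the log2(TPM + 0.1) scale, where ZBTB11 changed by -0.29 and -0.32. Leaving out 1 library gave 27 to 140. Against sgNS, 1932 became 3142 and 3161 with limma (2957 and 2977 higher), where the median of all genes moved to 0.19 and 0.22, and 1195 to 2063 without 1 library. Against sgZBTB11 #2, 434 became 294 with DESeq2, 206 and 212 with limma, and 245 to 514 without 1 library. The day 5 minus day 3 count of 1 was 4 with DESeq2, 0 without a filter and 0 to 1 without 1 library.

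The replicate numbers were tried as a replicate block, which gave 152 calls. Deviations of same-numbered DOX and DMSO libraries correlated at -0.1 and 0.05 over 2 pairs. With 2 DMSO libraries the deviations of 1 mirror those of the other, so this check cannot decide whether the numbers pair libraries.

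Signs turned for ZBTB11-AS1 (0 with the block, 0.13 without DMSO replicate 1, 0.04 without DOX replicate 3, against -0.13 without DMSO replicate 2), ANKRD12 (-0.02 and -0.04 with limma) and SKP1 (0 with the length trend removed and without DMSO replicate 2, 0.02 without DOX replicate 3, against -0.09 without DOX replicate 2). The cause was not tested. Of 959 runs of 60 called named genes, a count without ZBTB11 and SLIRP, 654 kept the call, 303 lost it and 2 reversed. With 2 DMSO libraries, changes under about 0.09 log2 units were not called in any gene.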
